A study of Homo sapiens with 8 samples.

Results

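The AP-1 family comprises the genes of the FOS branch (FOS, FOSB, FOSL1 and FOSL2), the JUN branch (JUN, JUNB and JUND) and the BATF branch (BATF and BATF3), and was followed here in human foam cells given auranofin or vehicle. The 9 members were taken by symbol from a table of 62700 rows, each symbol had a row, and all 9 were among the 17535 genes with enough counts to be tested. The cells were THP-1, a human monocytic leukaemia line. Both groups had been made into macrophages with 50 ng/mL of the phorbol ester phorbol-12-myristate-13-acetate (PMA) for 72 h, and both were loaded for 48 h with acetylated low-density lipoprotein (AcLDL), a modified lipoprotein that fills macrophages with cholesteryl esters. The 4 FCs_DMSO libraries carried the vehicle dimethyl sulfoxide (DMSO, below 0.1% by volume) and the 4 FCs_AF libraries 0.5 µM auranofin (AF), a gold-containing antirheumatic drug that blocks thioredoxin reductase. By the sample protocol, drug or vehicle was on the cells for 24 h before the lipoprotein and stayed on to the end, while the series' own design text puts the drug after the load. THP-1 is a single leukaemia line, there were no cells without PMA and none without AcLDL, so the comparison is of auranofin on top of both.

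AP-1 proteins bind DNA as pairs through a basic region followed by a leucine zipper (bZIP). FOS proteins pair with JUN proteins and do not pair with themselves, JUN proteins pair with either branch, and the smaller BATF proteins pair with JUN proteins and lack the activation domain of FOS. The shared site is also called the phorbol ester response element, since phorbol esters such as PMA raise AP-1 activity, and AP-1 binding depends on a reduced cysteine in the basic region that thioredoxin and the nuclease APEX1 can restore. In macrophages AP-1 acts beside the lineage factor PU.1 at genes of inflammation, matrix breakdown and differentiation. FOS, FOSB, JUN and JUNB are classical immediate early genes, transcribed for a short time after a stimulus, while FOSL2 and JUND are usually expressed for longer.

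The promoters of these genes carry short sites through which AP-1, CREB/ATF proteins and the basal machinery act, and those of the genes the results turn on are shown with such sites in capitals. Sequences are from RefSeq on GRCh38.p14, which held 7 of the 9 members (FOSL1 and BATF3 were not in the table). They run 5′ to 3′ on the gene's own strand. JUNB, FOSL2 and FOSB are given from 180 bases before to 20 bases after the RefSeq start: JUNB at chr19:12791306-12791505 on the plus strand, FOSL2 at chr2:28392678-28392877 on the plus strand and FOSB at chr19:45467816-45468015 on the plus strand. FOS is given from 180 to 26 bases before its start, at chr14:75278648-75278802 on the plus strand. JUN is given from 80 to 51 bases before its start, at chr1:58784098-58784127 on the minus strand, because GENCODE 29 places that stretch in the exon of JUN. GENCODE 29 also starts FOSL2 at 28392448 and FOS at 75278774. The whole FOSL2 stretch and the end of the FOS stretch, with its TATAAA, thus lie within the genes as placed there. Positions are counted from the RefSeq start.

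JUNB: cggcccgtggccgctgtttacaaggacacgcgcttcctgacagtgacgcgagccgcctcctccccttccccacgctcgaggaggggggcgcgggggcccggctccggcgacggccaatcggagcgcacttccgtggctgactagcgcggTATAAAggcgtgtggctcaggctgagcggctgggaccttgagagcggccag
FOSL2: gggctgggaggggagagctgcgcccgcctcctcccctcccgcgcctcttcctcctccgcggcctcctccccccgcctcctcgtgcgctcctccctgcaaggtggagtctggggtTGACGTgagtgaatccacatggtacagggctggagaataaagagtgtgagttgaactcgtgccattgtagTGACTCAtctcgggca
FOSB: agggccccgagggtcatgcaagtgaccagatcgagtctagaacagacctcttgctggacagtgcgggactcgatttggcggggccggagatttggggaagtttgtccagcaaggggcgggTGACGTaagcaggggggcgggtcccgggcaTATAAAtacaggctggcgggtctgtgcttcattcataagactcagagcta
FOS: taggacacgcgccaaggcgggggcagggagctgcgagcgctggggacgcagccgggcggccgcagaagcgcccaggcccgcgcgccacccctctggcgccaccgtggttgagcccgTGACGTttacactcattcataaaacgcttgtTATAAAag
JUN: gaaggccttggggTGACATCAtgggctatt

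In all, 4 strings were searched in the 300 bases from 250 before to 50 after each start: the AP-1 site TGANTCA, the CRE-like site TGACNTCA and the CRE core TGACGT on both strands, and the TATA box TATAAA on the gene's strand. TGACGT overlaps TGACNTCA wherever that site reads TGACGTCA. Each string occurs in 7.35% to 7.97% of 34943 RefSeq promoters of that length. FOSB and FOS shared an arrangement, with TGACGT at 60 and 64 bases and TATAAA at 30 and 33 bases before the start. FOSL2 had TGACGT at 66 bases before the start and the AP-1 site TGACTCA 5 bases after it. JUNB had TATAAA at 31 bases before the start, and JUN the CRE-like site TGACATCA at 67 bases before it. JUND, whose stretch is not shown, had TGACGTCA at 200 bases and a further TGACGT on the other strand at 87 bases before the start. BATF had none of the 4 strings. None of the strings was in all of JUNB, FOSL2 and FOSB. The strings were chosen with the sequences in view, and a match is a description of letters, not evidence of binding.

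Depth ran from 19336073 counts (DMSO replicate 4) to 32325981 (AF replicate 2) per library, and the AP-1 genes together took 0.0378% to 0.0624% of a library's counts. AF replicate 1 stood apart: 34.8% of its counts were ribosomal RNA (0.743% to 0.963% elsewhere), and its scaling factor was 0.679 (1.04 to 1.08 elsewhere). All 8 macrophage markers listed were detected in every library, with a summed level of 3393 to 3975 CPM in DMSO and 2834 to 3138 CPM in AF, where CPM is a gene's count normalised to the TMM-scaled library size. CD14 and ITGAM rose and LYZ, FCGR1A and MRC1 fell. The calls of CD14 and FCGR1A, whose groups overlapped, were each lost in 6 of the 8 fits that left out 1 library: CD14 without DMSO 1, 3 or 4 or AF 1, 2 or 3 (adjusted p up to 0.0929), and FCGR1A without DMSO 2, 3 or 4 or AF 1, 2 or 3 (up to 0.108). CD14, FCGR1A and ITGAM were not called with library totals alone. Whether this shift has a part in the AP-1 results was not tested. Summed T cell, B cell, epithelial, fibroblast and erythroid markers stayed at or below 1.28 CPM, with MS4A1, EPCAM, COL1A2 and HBB at 0 in all libraries. Endothelial markers summed to 300 to 327 CPM, nearly all of it PECAM1, which macrophages also express. Separate cultures are not stated in the labels, and library names within a group share stems that the sources leave unexplained. The 4 libraries of a group may thus come from fewer separate sources. The p-values speak only of how far these libraries scatter, and that scatter may be technical. In bulk RNA, fewer cells expressing a gene and less of its RNA per cell cannot be told apart.

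Auranofin-treated foam cells had more JUNB, FOSL2 and FOSB transcript, while the founding members FOS and JUN did not pass the test. FOSB, a FOS paralog, was 4.60-fold higher (95% interval 2.26 to 9.37), FOSL2, which encodes FRA-2, 1.90-fold higher (1.54 to 2.34) and JUNB 1.65-fold higher (1.47 to 1.86). The other 6 members did not pass the test in either direction. Thus 3 of 9 members were called higher at an adjusted p under 0.05, where 7.62% of all 17535 tested genes were called higher and 7.81% lower. The same 3 were the members whose AF values all lay above their DMSO values, a separation that 9.86% of all tested genes showed in that direction and 9.68% in the other. The median log2 fold change was 0.22 over the 9 members and 0.0050 over all tested genes. JUNB, FOSL2 and FOSB were called higher in each of the 17 alternative fits, among them those without AF replicate 1 and with scaling by library totals alone.

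**Figure D1:**
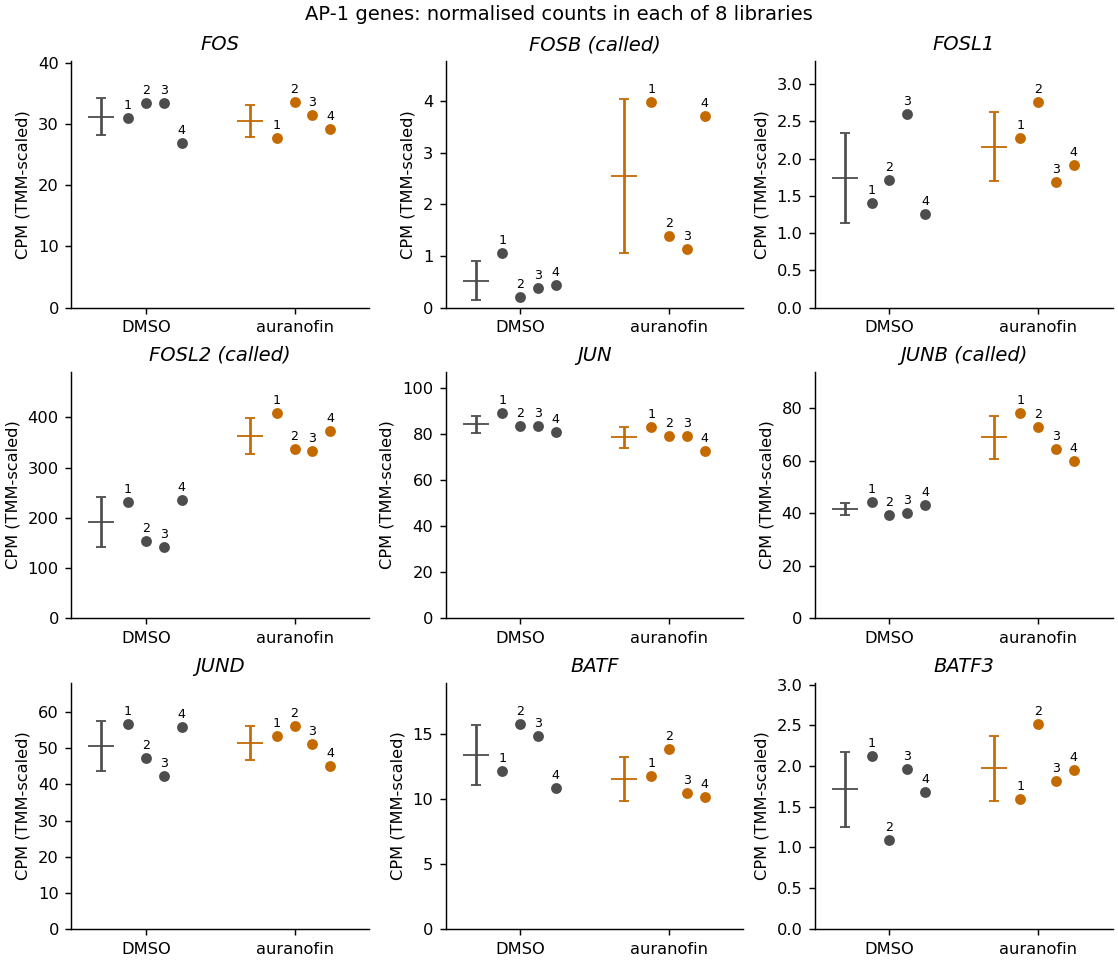
Normalised counts (CPM on TMM-scaled library size, linear axes from 0) of each AP-1 gene in the 4 DMSO and 4 auranofin libraries, numbered by replicate, with the group mean and SD as a bar. JUNB, FOSL2 and FOSB have all auranofin points above all DMSO points, and the groups overlap for the other 6 genes.

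Among the JUN proteins, the shared partners of the family, the change was in JUNB, which is known to activate fewer promoters than JUN and can oppose it. JUNB stood at 44.2, 39.5, 40.1 and 43.1 CPM in DMSO replicates 1 to 4 and at 78.3, 72.8, 64.7 and 59.9 CPM in AF replicates 1 to 4. The lowest AF library was well above the highest DMSO library, and the DMSO libraries were close together. From 41.7 ± 2.26 to 68.9 ± 8.21 CPM (mean ± SD, n = 4 per group), its log2 fold change was 0.72 ± 0.08 (SE), with an adjusted p of 3.77e-05 in edgeR's quasi-likelihood test with Benjamini-Hochberg adjustment. By p, JUNB ranked 92 among all 17535 genes. JUN, the most potent activator of the branch, gave 89.2, 83.3, 83.7 and 80.7 CPM in DMSO and 83.3, 79.3, 79.2 and 72.4 CPM in AF. Its groups overlapped, and the log2 fold change was -0.10 ± 0.06 (95% interval -0.22 to 0.02, adjusted p 0.257). JUND, the broadly expressed member that is less tied to acute stimuli, lay between 42.4 and 56.8 CPM in DMSO and between 45.2 and 56.1 CPM in AF. Its log2 fold change was 0.02 ± 0.09 (95% interval -0.18 to 0.22, adjusted p 0.897). The upper bounds of both intervals lie below the lower bound for JUNB, 0.55.

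In the FOS branch, whose proteins need a JUN partner, FOSL2 carried most of the transcript and most of the rise. FOSL2 had 231, 154, 142 and 236 CPM in DMSO replicates 1 to 4 and 409, 336, 332 and 372 CPM in AF replicates 1 to 4. Libraries 1 and 4 were higher than libraries 2 and 3 in both groups, and every AF library was above every DMSO library. The mean went from 190.9 ± 49.8 to 362 ± 35.8 CPM, and the fit gave 0.92 ± 0.14 on the log2 scale with an adjusted p of 0.000534. FOSB, whose protein has a short splice form known for long persistence in neurons, was scarce: 1.06, 0.194, 0.383 and 0.432 CPM in DMSO and 3.98, 1.39, 1.14 and 3.70 CPM in AF. Those levels rest on 31, 5, 9 and 9 counts in DMSO and 75, 47, 35 and 95 counts in AF. AF libraries 1 and 4 were high, AF libraries 2 and 3 lay only just above DMSO replicate 1, and no values overlapped. The fitted change of FOSB was 2.20 ± 0.48 on the log2 scale (adjusted p 0.00668), which became 2.89 without DMSO replicate 1 and 1.92 without AF replicate 1. Its size is therefore known only loosely, and gene-level counts do not separate its splice forms.

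FOS itself, the best known immediate early gene, was at 31.0, 33.4, 33.5 and 27.0 CPM in DMSO and at 27.7, 33.6, 31.5 and 29.3 CPM in AF. The groups overlapped throughout, and the log2 fold change of -0.03 ± 0.10 (adjusted p 0.864) had a 95% interval of -0.24 to 0.18. FOSL1, which encodes FRA-1 and like FRA-2 lacks the strong activation domain of FOS, gave 1.40, 1.71, 2.597 and 1.249 CPM in DMSO and 2.28, 2.76, 1.69 and 1.91 CPM in AF. It did not pass the test (log2 fold change 0.32 ± 0.24, 95% interval -0.20 to 0.83, adjusted p 0.410). It rests on 26 to 93 counts per library.

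BATF and BATF3, which pair with JUN proteins and cooperate with interferon regulatory factors, did not pass the test. BATF had 12.2, 15.8, 14.9 and 10.8 CPM in DMSO and 11.7, 13.8, 10.4 and 10.1 CPM in AF, with a log2 fold change of -0.22 ± 0.13 (95% interval -0.49 to 0.06, adjusted p 0.28). BATF3, known for its role in cross-presenting dendritic cells, was at 2.12, 1.09, 1.96 and 1.68 CPM in DMSO and at 1.59, 2.52, 1.82 and 1.95 CPM in AF. Its log2 fold change was 0.22 ± 0.23 (95% interval -0.27 to 0.70, adjusted p 0.563). In both genes the groups overlapped.

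**Figure D2:**
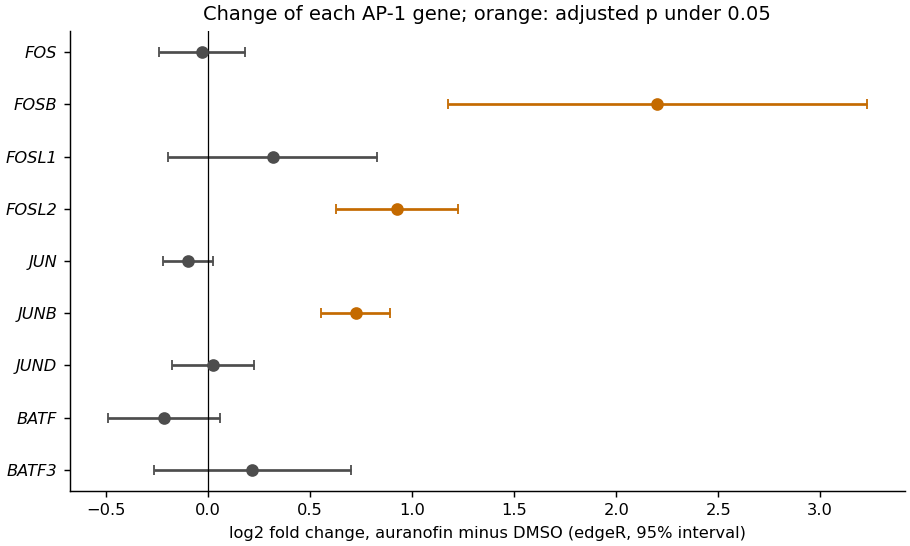
Log2 fold change of each AP-1 gene, auranofin minus DMSO, from edgeR with its 95% interval, orange where the adjusted p was under 0.05. FOSB (2.20), FOSL2 (0.92) and JUNB (0.72) lie to the right of 0, and the intervals of the other 6 genes include 0.

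The labels give no reason for the gap between libraries 1 and 4 and libraries 2 and 3, which touched several members. FOSL2 averaged 233.8 CPM in DMSO libraries 1 and 4 and 148.0 in DMSO libraries 2 and 3, against 390.4 and 334.1 CPM in the same libraries of AF. Its log2 difference between AF and DMSO was 0.74 within libraries 1 and 4 and 1.18 within libraries 2 and 3. JUNB gave 0.65 and 0.79, and FOSB 2.50 and 2.21. Since every AF value of JUNB, FOSL2 and FOSB lay above every DMSO value, any such division had to give positive differences. JUND gave -0.20 and 0.26 and BATF3 -0.10 and 0.55, opposite signs in both genes. FOSL1 gave 0.66 and 0.04, and FOS, JUN and BATF also kept their sign. These are differences of means of log2 CPM over 2 libraries a side, given without a test.

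Per length, the levels of the genes can be set beside each other. On the scale of CPM per kb of merged exon (GENCODE 29), the DMSO order was led by JUND (27.2 ± 3.72), FOSL2 (26.7 ± 6.96), JUN (23.8 ± 1.01) and JUNB (22.9 ± 1.24). The library ranges of these 4 genes overlapped between neighbours in that order. BATF (13.7 ± 2.36) and FOS (9.64 ± 0.944) followed, each apart from its neighbours, and FOSL1 (0.921 ± 0.319), BATF3 (0.631 ± 0.168) and FOSB (0.0932 ± 0.0678) were low, the first pair overlapping. In AF, FOSL2 (50.6 ± 5.01, range 46.4 to 57.1) lay above JUNB (37.9 ± 4.51, range 32.9 to 43.0), and JUNB above JUND (27.6 ± 2.49, range 24.3 to 30.1), with no overlap between these neighbours. JUN (22.2 ± 1.27), BATF (11.8 ± 1.71), FOS (9.42 ± 0.796), FOSL1 (1.14 ± 0.247), BATF3 (0.726 ± 0.146) and FOSB (0.460 ± 0.269) came next in that order. FOSB was thus the lowest member per length in both groups, although its fold change was the largest of the 9. The order depends on the length used: 4 members change rank in DMSO with the longest transcript and 5 with the longest coding sequence, and with the coding length FOSL2 is first and JUN is next in both groups.

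JUNB and FOSL2 held larger shares of their branches in AF. FOSL2 made up 70.6% ± 7.56 of the FOS branch per length in DMSO and 82.0% ± 2.16 in AF, while the share of FOS went from 26.6% ± 6.47 to 15.4% ± 2.29. JUNB made up 31.1% ± 0.805 of the JUN branch in DMSO and 43.1% ± 1.54 in AF, JUN 32.3% ± 2.07 and 25.4% ± 1.07, and JUND 36.6% ± 2.63 and 31.5% ± 1.10. BATF made up 95.4% and 94.2% of its branch. The FOS branch summed to 37.3 ± 5.94 CPM per kb in DMSO (31.7 to 42.8) and 61.6 ± 4.57 in AF (57.2 to 67.6), without overlap. For the JUN branch the sums of 73.9 ± 5.28 (68.5 to 80.0) and 87.7 ± 7.87 (77.6 to 95.1) overlapped. Shares and sums contain the changes described above and are given without a test.

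**Figure D3:**
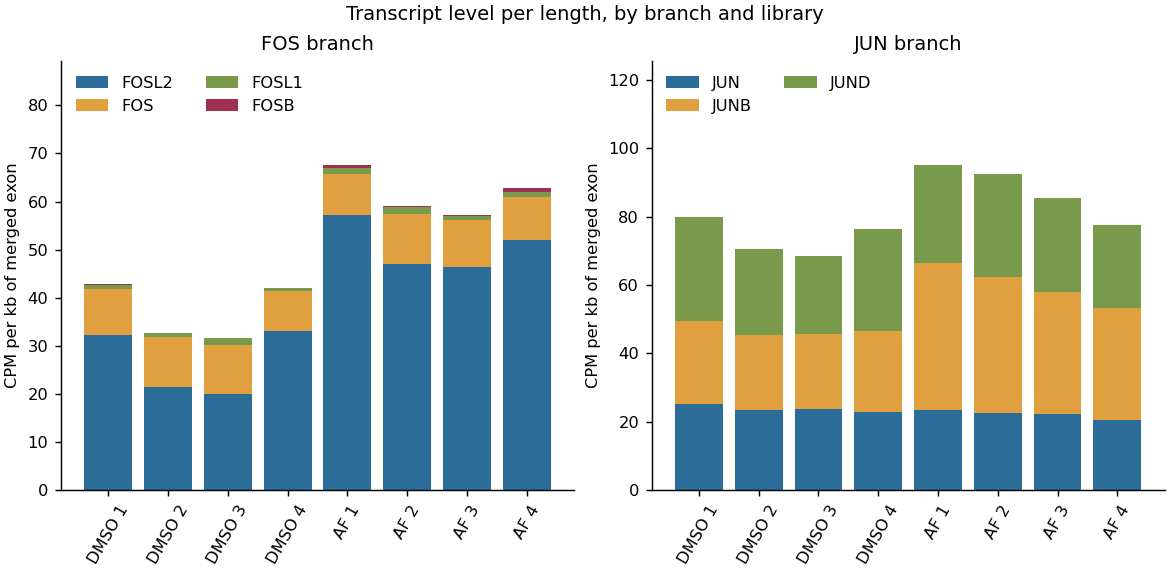
Stacked transcript level per length (CPM per kb of merged exon, axes from 0) of the FOS branch and the JUN branch in each of the 8 libraries. FOSL2 fills most of each FOS branch bar and is larger in all 4 auranofin bars, while in the JUN branch the JUNB segment widens and the JUN and JUND segments stay similar.

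Counts of paralogs in the same library share its depth and scaling, so their ratio does not depend on the scaling factor of AF replicate 1. The JUNB to JUN ratio ran from 0.474 to 0.534 in DMSO and from 0.817 to 0.940 in AF, a 1.76-fold difference. FOSL2 to FOS ran from 4.25 to 8.75 in DMSO and from 9.99 to 14.8 in AF, a 1.98-fold difference. For FOSB to FOS the ratio ran from 0.0058 to 0.0343 in DMSO and from 0.0362 to 0.144 in AF, a 5.23-fold difference. None of these 3 ratios overlapped between groups, and each had a two-sided exact permutation p of 0.0286, the smallest that 4 against 4 allows, and 0.0572 after Benjamini-Hochberg adjustment over 6 pairs. FOSL1 to FOS, JUND to JUN and BATF3 to BATF overlapped, with log2 differences of 0.38, 0.13 and 0.44 and exact permutation p of 0.171, 0.229 and 0.171 (adjusted 0.205, 0.229 and 0.205). The pairs were chosen after the values of the members had been seen. The ratios contain the changes described above, so their p-values are not separate evidence of them.

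**Figure D4:**
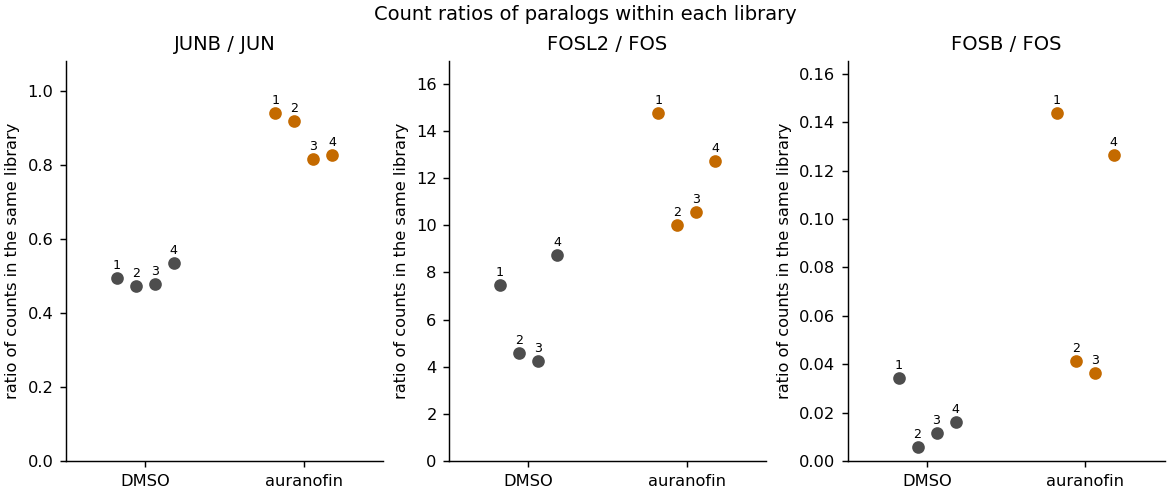
Ratio of the counts of AP-1 paralogs in the same library (no unit, linear axes from 0), with 1 point for each of the 4 DMSO and 4 auranofin libraries. The ratios of FOSB to FOS, FOSL2 to FOS and JUNB to JUN are higher in every auranofin library than in every DMSO library.

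The wider set of bZIP proteins that pair with AP-1 moved in both directions. Of 13 such genes, 5 were called higher and 2 lower, 53.8% called where 15.4% of all tested genes were, with a median log2 fold change of 0.12. ATF3, a stress-induced JUN partner that often represses, had 34.1, 19.8, 19.6 and 30.3 CPM in DMSO and 65.1, 47.2, 51.6 and 65.7 CPM in AF. It showed the same high values in libraries 1 and 4 as FOSL2 and rose by a log2 fold change of 1.14 ± 0.16 (adjusted p 0.000336). DDIT3, the integrated stress response factor CHOP, rose from 121 ± 17.9 to 209 ± 25.7 CPM (0.80 ± 0.10, adjusted p 0.000119). The small MAF gene MAFF, which has no activation domain, rose by 0.55 ± 0.09 (adjusted p 0.00139). MAF, a regulator of the macrophage state, fell from 107 ± 2.55 to 69.2 ± 3.22 CPM (-0.62 ± 0.05, adjusted p 4.77e-06). Also called were MAFK (0.49 ± 0.11) and NFE2L2 (0.35 ± 0.07), both higher and named after their values were seen. JDP2, which represses AP-1 sites, had 0.10 ± 0.09 (adjusted p 0.516) and ATF2 0.08 ± 0.07. With library totals alone 4 of the 13 were called and the rise of MAFF, MAFK and NFE2L2 was lost. That fit called fewer genes over the whole table as well, as given in the part on processing.

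Upstream, most transcripts of the MAP kinase cascades that phosphorylate FOS and JUN proteins did not pass the test. Of 34 listed genes 33 were tested (not MAPK10), 6 were called higher and 2 lower, 24.2% called against 15.4% of all tested genes, with a median of 0.03. RPS6KA5 (MSK1, a nuclear kinase of CREB and histone H3) rose from 4.29 ± 0.593 to 7.59 ± 0.595 CPM, by 0.82 ± 0.13 (adjusted p 0.000646). MAP3K8 (TPL2, which feeds ERK after inflammatory stimuli) rose by 0.69 ± 0.14 (adjusted p 0.00363) and RPS6KA2 (RSK3) by 0.39 ± 0.06 (adjusted p 0.000975). MAP2K6, a p38 kinase kinase, fell from 7.54 ± 0.908 to 5.00 ± 1.12 CPM (-0.60 ± 0.16, adjusted p 0.0168) and MAP3K1, upstream of JNK, by 0.22 ± 0.06 on the log2 scale (adjusted p 0.0267). The JNK genes MAPK8 and MAPK9 had log2 fold changes of 0.04 ± 0.12 and 0.00095 ± 0.06, the ERK gene MAPK3 of 0.15 ± 0.10, and the p38 gene MAPK14 of 0.15 ± 0.06 (adjusted p 0.0843), none called. Kinase activity was not measured. The count of 8 fell to 5 without DMSO replicate 1, to 3 without DMSO replicate 2 or AF replicate 3, to 4 without DMSO replicate 3 and to 2 with library totals alone, where MAP3K8, RPS6KA2 and MAP3K1 were not called. MAP2K6 was not called without DMSO replicate 2 (adjusted p 0.0624) or AF replicate 3 (0.0585), and MAP3K1 not without DMSO replicate 2 or 3 or AF replicate 2 or 3 (0.0684 to 0.0810).

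Of 16 genes listed as acting on the FOS and JUN promoters, 5 were called, 2 higher and 3 lower (31.2% against 15.4% of all tested genes, median -0.05). CREM, a CREB relative with activating and repressing forms, rose from 16.3 ± 4.13 to 27.4 ± 4.32 CPM (0.75 ± 0.16, adjusted p 0.00608), again with high values in libraries 1 and 4 of both groups. ATF1, another CREB relative, rose by 0.36 ± 0.08 (adjusted p 0.00989). The E protein gene TCF3 fell from 55.0 ± 3.07 to 42.7 ± 5.16 CPM (-0.37 ± 0.08, adjusted p 0.00878). It is not an established factor of these promoters, yet it counts among the 3 called lower. The coactivator gene MRTFA (-0.25 ± 0.07, adjusted p 0.0261) and MEF2A (-0.27 ± 0.08, adjusted p 0.0287) were also called lower. SRF, the serum response factor of the FOS and JUNB genes, and its partner ELK1 had -0.13 ± 0.06 (adjusted p 0.176) and 0.12 ± 0.09, and CREB1 had 0.11 ± 0.07, none called. Leaving out a single library ended the call of MRTFA (DMSO 1, 2 or 3 or AF 3, adjusted p 0.0525 to 0.107) and of MEF2A (DMSO 1 or 4 or AF 2 or 3, adjusted p 0.0581 to 0.103). With libraries of a name stem summed ATF1 was not called (0.0597), and the count was 3 without DMSO replicate 1 or AF replicate 3 and 0 with library totals alone.

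Genes that modify or degrade AP-1 proteins gave 3 calls among 15 tested of 16 (1 higher and 2 lower, a share of 20%, near the 15.4% of all tested genes), with a median of 0.03 and DET1 not tested. TXN, thioredoxin, had 97.7, 117, 127 and 119 CPM in DMSO and 140, 157, 155 and 148 CPM in AF, a log2 fold change of 0.38 ± 0.07 (adjusted p 0.00264) with no overlap. APEX1, which reduces the cysteine of FOS and JUN, had 122, 131, 135 and 115 CPM in DMSO and 112, 104, 102 and 109 CPM in AF, a fold change of -0.24 ± 0.06 (log2, adjusted p 0.0145), likewise with no overlap. PPP2CA, a phosphatase catalytic subunit, fell from 39.98 ± 3.50 to 30.5 ± 4.14 CPM (-0.39 ± 0.10, adjusted p 0.0201). APEX1 was not called without DMSO replicate 3 (adjusted p 0.0535) or AF replicate 3 (0.0627), nor PPP2CA when DMSO 2 (0.0612), DMSO 3 (0.0846) or AF 2 (0.0533) was left out, and the count was 1 without DMSO replicate 3. With library totals alone TXN and APEX1 were not called, and the count was 1.

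Interferon regulatory factors, a family with members that bind composite sites with BATF proteins, were called in 3 of 4 tested cases (2 higher and 1 lower, 75.0% against 15.4% of all tested genes, median 0.05). The main BATF partners gave none of the 3 calls: the preferred partner IRF4 had 0 to 10 counts and was not tested, and IRF8 was not called. IRF2 rose from 46.2 ± 1.48 to 64.0 ± 3.01 CPM (0.47 ± 0.06, adjusted p 0.000108) and IRF1 by 0.29 ± 0.08 (adjusted p 0.0254). IRF5 fell from 111 ± 9.66 to 86.8 ± 8.13 CPM (-0.36 ± 0.08, adjusted p 0.00529), and IRF8, the other main partner of BATF3, had -0.19 ± 0.07 (adjusted p 0.0762). IRF1 was not called without DMSO replicate 1, 2 or 3 or AF replicate 2 or 3 (adjusted p 0.0651 to 0.0819). None of the 3 was called with library totals alone.

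Downstream, genes with well-known AP-1 sites in their control regions were more often higher than lower. Of 32 listed, 23 were tested, 12 were called higher and 2 lower (60.9% called, against 7.62% of all tested genes higher and 7.81% lower), and the median log2 fold change was 0.41. IL1B, the inflammatory cytokine, had 4.24, 4.73, 3.83 and 4.04 CPM in DMSO and 8.54, 10.0, 9.33 and 9.87 CPM in AF, a log2 fold change of 1.16 ± 0.11 (adjusted p 1.17e-05). The integrin gene ITGAX rose from 306 ± 18.5 to 492 ± 64.0 CPM (0.69 ± 0.09, adjusted p 0.000156) and the urokinase receptor gene PLAUR from 136 ± 4.86 to 186 ± 13.9 CPM (0.45 ± 0.06, adjusted p 0.000173). SPP1, osteopontin, fell: 860, 975, 1045 and 859 CPM in DMSO and 384, 234, 227 and 416 CPM in AF, a log2 fold change of -1.57 ± 0.17 (adjusted p 3e-05). The lamin gene LMNA was lower by 0.25 ± 0.08 on the log2 scale (adjusted p 0.0395), a call that ended without any of DMSO 1 to 3 or AF 2 to 4 (0.0668 to 0.136). The classical collagenase and stromelysin targets MMP1, MMP3, MMP10 and MMP12 were too scarce to test, as were SERPINB2, IL6, CSF2 and LIF. With library totals alone 6 were called, 5 higher and 1 lower, with a median of 0.27, and ITGAX, PLAUR and LMNA were not among them. These genes also have sites for other factors, and binding was not measured.

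Immediate early genes outside the family were set beside FOS, FOSB, JUN and JUNB. Of 16 listed, 13 were tested, 5 were called higher and 1 lower (46.2% against 15.4% of all tested genes, median 0.26). DUSP1, the MAP kinase phosphatase, had 12.5, 10.0, 10.0 and 11.2 CPM in DMSO and 33.8, 32.7, 30.2 and 30.9 CPM in AF, a log2 fold change of 1.54 ± 0.10 (adjusted p 4.42e-07). EGR1 rose from 2.13 ± 0.804 to 7.88 ± 1.39 CPM (1.87 ± 0.21, adjusted p 5.55e-05) and PPP1R15A (GADD34, which reverses the integrated stress response) from 91.3 ± 9.24 to 134 ± 12.02 CPM (0.55 ± 0.08, adjusted p 0.000249). KLF6 was lower by 0.24 ± 0.07 on the log2 scale (adjusted p 0.0306), a call lost without any of the 4 DMSO libraries or AF 2 or 3 (0.0591 to 0.123). ZFP36, IER2, IER5, EGR2 and GADD45B were not called, and neither were FOS and JUN. IER2 (0.31 ± 0.10, adjusted p 0.0546) and GADD45B (0.25 ± 0.11, adjusted p 0.125) nonetheless had all AF values above all DMSO values, as 9.86% of all tested genes did. In ZFP36, IER5, EGR2, FOS and JUN the groups overlapped. With library totals alone 4 were called, without PPP1R15A and KLF6.

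**Figure D5:**
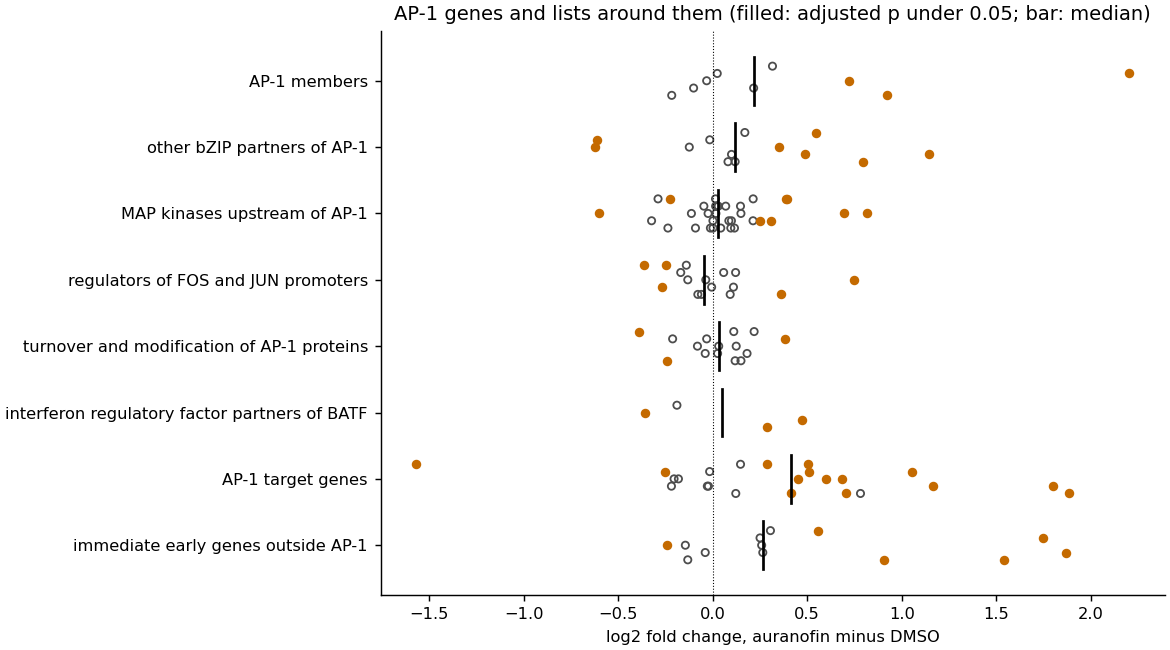
Log2 fold change, auranofin minus DMSO, of each tested gene in the AP-1 family and in 7 lists around it, filled orange where the adjusted p was under 0.05, with the list median as a vertical bar. The medians of the AP-1 targets (0.41) and immediate early genes (0.26) lie furthest to the right, and SPP1 (-1.57) lies furthest to the left.

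The genes whose profile over the 8 libraries was closest to that of JUNB were sought among 10982 tested genes outside the family with a symbol and a mean of at least 5 CPM. Likeness was the mean absolute difference of log2(CPM + 0.5), each gene centred on its own mean. NDRG1, a stress and hypoxia responsive gene, was closest (0.0735), followed by the adenylate cyclase gene ADCY8 (0.0782), PPP1R15A (0.0787), CLMN (0.0813) and PRKAG2, a regulatory subunit of the energy sensor AMPK (0.0823). Their log2 fold changes were 0.73 ± 0.07, 0.72 ± 0.11, 0.55 ± 0.08, 0.68 ± 0.11 and 0.58 ± 0.10. The measure describes 8 libraries that fall into 2 groups. Of these 5 genes NDRG1 was also called with library totals alone.

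Neighbouring genes of called and uncalled members both included genes that passed the test, against 15.4% of all tested genes (7.62% higher and 7.81% lower). JUNB (ENSG00000171223.5) spans chromosome 19 from 12791496 to 12793315 on GRCh38 as a single exon, and 9 tested protein-coding genes lie within 100 kb of it. The called one, RNASEH2A, was lower (-0.41 ± 0.09, adjusted p 0.00737). HOOK2 lies on the opposite strand and overlaps 14.2% of the exon bases of JUNB, and it had 8.90 CPM in both groups on average (log2 fold change 0.0034 ± 0.09). The library kit was stranded per the labels, but whether counting used the strand is not given in the sources used here. FOSL2 (ENSG00000075426.11; chromosome 2, 28392448 to 28417312, 4 exons) has 2 such neighbours, of which PLB1 was lower (-0.49 ± 0.08, adjusted p 0.000975). FOSB (ENSG00000125740.13; chromosome 19, 45467995 to 45475179, 4 exons) has 7, of which OPA3 (-0.26 ± 0.07, adjusted p 0.0255) and VASP (-0.29 ± 0.06, adjusted p 0.00677) were lower. OPA3 was not called without any of DMSO 1 to 3 or AF 2 or 4.

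Of the members not called, FOSL1, JUND and BATF3 had called neighbours. FOSL1 (ENSG00000175592.8; chromosome 11, 65892049 to 65900573, 4 exons) has 11 tested neighbours, of which CCDC85B (-0.42 ± 0.13, adjusted p 0.0465) and CFL1 (-0.33 ± 0.09, adjusted p 0.0176) were lower. CCDC85B was not called without any of DMSO 1 to 3 or AF 2 to 4 (adjusted p up to 0.126), and CFL1 not when DMSO 2, DMSO 3 or AF 3 was left out (up to 0.0646). BATF3 (ENSG00000123685.8; chromosome 1, 212686418 to 212699985) lies within 100 kb of ATF3, which rose as given above. JUND (ENSG00000130522.5; chromosome 19, 18279760 to 18281622, 1 exon) has GDF15 (0.66 ± 0.14, adjusted p 0.00475) and RAB3A (1.18 ± 0.15, adjusted p 0.00013) within that distance, both higher. FOS (ENSG00000170345.9; chromosome 14, 75278774 to 75282230, 4 exons) and BATF (ENSG00000156127.6; chromosome 14, 75522425 to 75547015, 3 exons) lie 240.2 kb apart, and JDP2 lies near BATF. JUN (ENSG00000177606.6) spans chromosome 1 from 58780788 to 58784327 as 1 exon. No exon of a member overlapped another gene on the same strand in GENCODE 29. With library totals alone RNASEH2A, OPA3, VASP, CCDC85B, CFL1 and GDF15 were not called. The neighbouring genes and the distance were chosen after the values had been seen.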

How the data were processed

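Poly-A RNA of 8 THP-1 foam cell libraries was sequenced from 250 ng of total RNA with a stranded kit, per the labels' protocols. The authors deposited raw counts per gene, whole numbers without normalisation. Per the submitters' processing notes, STAR 2.6.1d, featureCounts, Subread 1.6.3 and GRCh38 were used. Which annotation and strand option were used, and how multi-mapped reads were handled, is not given in the sources used here. Reads were counted without molecular identifiers as far as the labels say.

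The counts as deposited were fitted for the whole table with edgeR 4.0.16 (R 4.3.3), with TMM scaling, default filterByExpr (17535 of 62700 genes kept), glmQLFit and glmQLFTest, AF against DMSO with all 8 libraries and no block, 6 residual degrees of freedom, two-sided, Benjamini-Hochberg adjustment over all genes tested, threshold 0.05. The biological coefficient of variation was 12.8%. CPM used TMM-scaled library sizes. The fit was also run on counts simulated from its own means and dispersions, with libraries independent of each other. That simulation holds no division among the libraries of a group, so it cannot speak on such a division. Libraries of a group differed beyond sampling noise (lowest chi-square per degree of freedom 2.78) and entered singly.

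The members and the lists were chosen with earlier results of these data known, and are not independent evidence. The text names all 9 members, up to 3 higher and 3 lower called genes of each list by smallest p, and the 5 genes most like JUNB. Some listed genes are not reported here. Genes outside that rule, in the text on markers, kinases, bZIP partners and neighbours, were named after their values were seen. Gene positions and lengths were read from GENCODE 29 (GRCh38), and the authors may have used another annotation. Alternatives were DESeq2 1.42.0, limma 3.58.1 voom, other scalings and filters, a replicate block, libraries summed by the shared stem of their names, and leaving out each library.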

Additional observations from a re-analysis of the deposited data

How the results depend on the processing

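Against 2705 genes called in the full fit, scaling by library totals alone gave 883 and a replicate block 4188, and leaving out each library in turn gave 1616 to 2964, the lowest with DMSO 2 left out (1648 with DMSO 3 and 1660 with AF 3 left out). JUNB, FOSL2 and FOSB were called higher in each of the 17 alternatives, with log2 fold changes of 0.55 to 0.78, 0.75 to 1.04 and 1.92 to 2.89 and adjusted p of at most 0.0377, 0.0024 and 0.0253. The sign of 2 members not called turned: JUND gave -0.13 with library totals alone and, over the fits that leave out 1 library, -0.053 (DMSO 3) to 0.085 (DMSO 1), with -0.02 for AF 2 and -0.0083 for DMSO 2. FOS gave -0.10 (DMSO 4 left out) to 0.0061 (AF 1), with 0.0017 for DMSO 2 and for DMSO 3. Library totals alone moved the median of all genes to -0.14 and the share of calls that were higher from 49.4% to 20.7%. That fit applies no scaling factor to AF replicate 1, whose counts were 34.8% ribosomal RNA and whose TMM factor was 0.679. Counts of calls in the lists under these alternatives are to be set against the all-gene counts above, not against the 15.4% of the full fit. Replicate numbers were not taken as a pairing, since the labels give none and 1 of the same-numbered correlations of deviations was under 0.1 (0.106, 0.187, 0.0306 and 0.267). Libraries 1, 2 and 4 nonetheless correlated best with their own number, a hint from the data, while DMSO 3 did so with AF 2 (0.0485) and AF 3 with DMSO 2 (0.0549). FOSB, FOSL1 and BATF3, with 5 to 95 counts per library, are limited by depth. Leaving out a library leaves 3 against 4 for the paralog ratios, where the smallest exact permutation p is 0.0571.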

Other observations

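The bZIP class beyond AP-1 was also examined, with a list of 44 genes chosen after the data were seen, which repeats the bZIP partners given in the report. Of 42 tested, 13 were called higher and 3 lower, 38.1% called where 15.4% of all tested genes were, with a median log2 fold change of 0.11. NFIL3, a repressor that is induced in stimulated macrophages, had 36.5, 26.3, 26.1 and 35.1 CPM in DMSO and 63.3, 54.8, 58.6 and 77.3 CPM in AF, a log2 fold change of 1.03 ± 0.12 (adjusted p 7.28e-05). Its values were higher in libraries 1 and 4 than in libraries 2 and 3 in both groups, as were those of FOSL2 and ATF3. XBP1, a factor of the unfolded protein response, rose by 0.48 ± 0.07 (adjusted p 0.000564), the heme-sensing repressor gene BACH1 by 0.36 ± 0.06 (adjusted p 0.00145) and the integrated stress response factor ATF4 by 0.29 ± 0.07 (adjusted p 0.0102). The myeloid factor CEBPA fell by 0.34 ± 0.07 on the log2 scale (adjusted p 0.00372), as did MAF. With library totals alone XBP1, BACH1, ATF4 and CEBPA were not called.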
